A study of Xenopus laevis with 3 samples.

Results

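Parvalbumins and oncomodulins were represented by 15 of the 32635 Xl-PSIDs (*X. laevis* Probe Set IDs) on the arrays of the *s50* inner ear. An Xl-PSID was taken as a member where the gene symbol of the platform's annotation begins with *pvalb* or is *ocm* with or without a number for the tandem copy, or where the study's own lists name it so. All 15 carried such a symbol in the annotation, 13 for oncomodulins and 2 for parvalbumins, and 4 of them were also named in the study's lists of genes that differ between stages. Inner ears were pooled from *X. laevis* larvae of stages 50 to 52, aged 15 to 21 days after fertilization, with 15 animals for s50_1, 38 for s50_2 and 24 for s50_3. Labelling started from 1 µg of total RNA for s50_1 and s50_2 and from 0.7 µg for s50_3, with a separate array for each pool. No strain, sex or treatment is given by the labels. These 3 arrays form a single group, so no test between conditions was possible, and values are log2 intensities in arbitrary units (a.u.) made by the authors with GCRMA, given as mean ± SD over the 3 arrays. Pool, number of animals and their mean size differ between all arrays and cannot be told apart, whereas the amount of RNA differs for s50_3 only. In the order s50_1, s50_2 and s50_3 the mean weight was 0.15, 0.14 and 0.16 g. The mean length was 2.99, 3.07 and 3.19 cm, with errors given by the labels as 0.28, 0.25 and 0.27 cm.

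Parvalbumins are small, soluble proteins that bind calcium through EF-hand loops and thereby buffer its rise in the cytosol. The family has an α lineage, the parvalbumin of mammalian fast muscle and of many neurons, and a β lineage, of which oncomodulin is the mammalian member. In the mammalian cochlea oncomodulin is found in outer hair cells, and in fishes and amphibians parvalbumins of the β type are abundant in fast skeletal muscle, where they speed relaxation. The inner ear RNA of a pool therefore can hold these transcripts from more than 1 cell type, and in pooled tissue fewer cells of a type and less RNA per cell cannot be told apart.

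The names of these genes have changed, and the current ones are used here. A gene table for the *X. laevis* assembly v10.1 lists 22 loci of the family, 20 for oncomodulin and 2 for parvalbumin (*pvalb.L* and *pvalb.S*). The oncomodulin genes stand next to each other, 12 in a run of the L subgenome and 8 in a run of the S subgenome, with 0 other genes of the table inside either run. All 8 copies of the S run have a partner of the same number in the L run, and 4 copies (*ocm4.7*, *ocm4.8*, *ocm4.9* and *ocm4.10*) are listed in the L run only. Xl-PSIDs were annotated to 11 of the 22 loci. These were 3 of the 12 oncomodulin genes of the L run, 6 of the 8 of the S run, and both parvalbumin genes. *ocm4.3* was the only oncomodulin copy with an Xl-PSID for each homeolog. The Xl-PSID that the study names *pvalb.2* is annotated to *ocm4.10.L*, an oncomodulin, while the gene table gives *pvalb.2* as an older name of *ocm4.2.S*, which has another Xl-PSID. Of the Xl-PSIDs that the study names *ocm.2*, the first is annotated to *ocm4.3.L*, for which *ocm.2* is an older name, and the second to *ocm4.1.L*. The gene table gives *ocm.2* as an older name of *ocm4.3.S* too, so the name alone does not tell the homeologs apart. The Xl-PSID named as a parvalbumin beta-like gene in the study is annotated to *ocm4.1.L* too. Another, annotated to *ocm4.5.S*, stands in the study's lists without a gene name. In the gene table *ocm4.1.S* overlaps *ocm4.2.S*, *ocm4.3.S* and *ocm4.4.S*. Tandem copies that are alike in sequence may share probes, so the assignment of an intensity to a single copy is uncertain throughout.

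**Figure D1:**
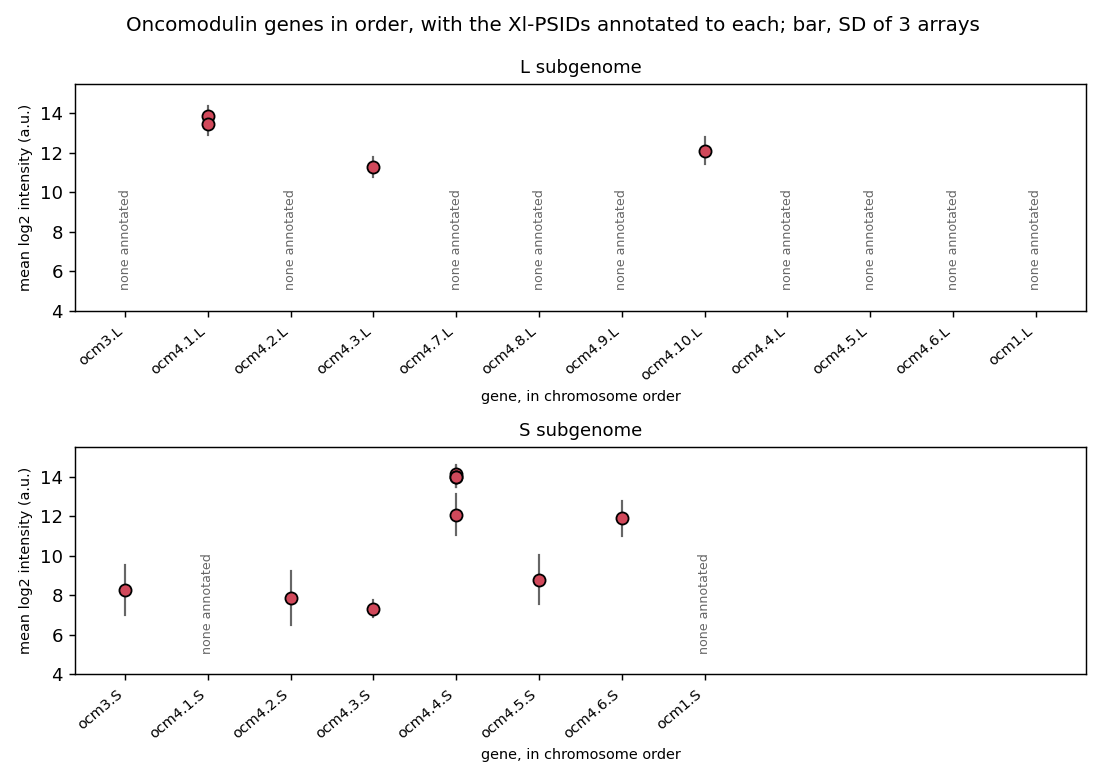
Mean log2 intensity (a.u., vertical axis) of each Xl-PSID, shown at its oncomodulin gene, with genes in chromosome order along the horizontal axis for the L run (upper panel, 12 genes) and the S run (lower panel, 8 genes); bars are the SD of 3 arrays. Xl-PSIDs are annotated to 3 genes of the L run and 6 of the S run, and *ocm4.4.S* has 4 of them.

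All members lay well above the floor of the arrays. An Xl-PSID is called detected here where its mean is at least 4, the level that the study's methods ask of an upregulated Xl-PSID. All 15 members were detected, against 64.8% of all Xl-PSIDs, and all 15 had a mean of at least 7, against 52.8%. The lowest single value of a member was 6.69 and the highest 14.54, while 42 *Bacillus subtilis* controls, for which larval RNA has no target, lay between 1.83 and 2.17. Means of at least 11 were seen for 10 of 15 members, against 18.2% of all Xl-PSIDs, and means of at least 13 for 5 of 15, against 3.82%. The median of the members was 12.07, and that of all Xl-PSIDs was 7.49. It was 8.79 for the 9 members that the array design assigns to a single transcript, and 13.72 for the 6 that can match several. For the members in the study's lists, which were chosen there as higher in *s50* than in the juvenile with a minimum intensity, detection follows from that choice. An intensity also depends on the probes of the Xl-PSID, and levels of different members are therefore not ranked as transcript abundance.

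**Figure D2:**
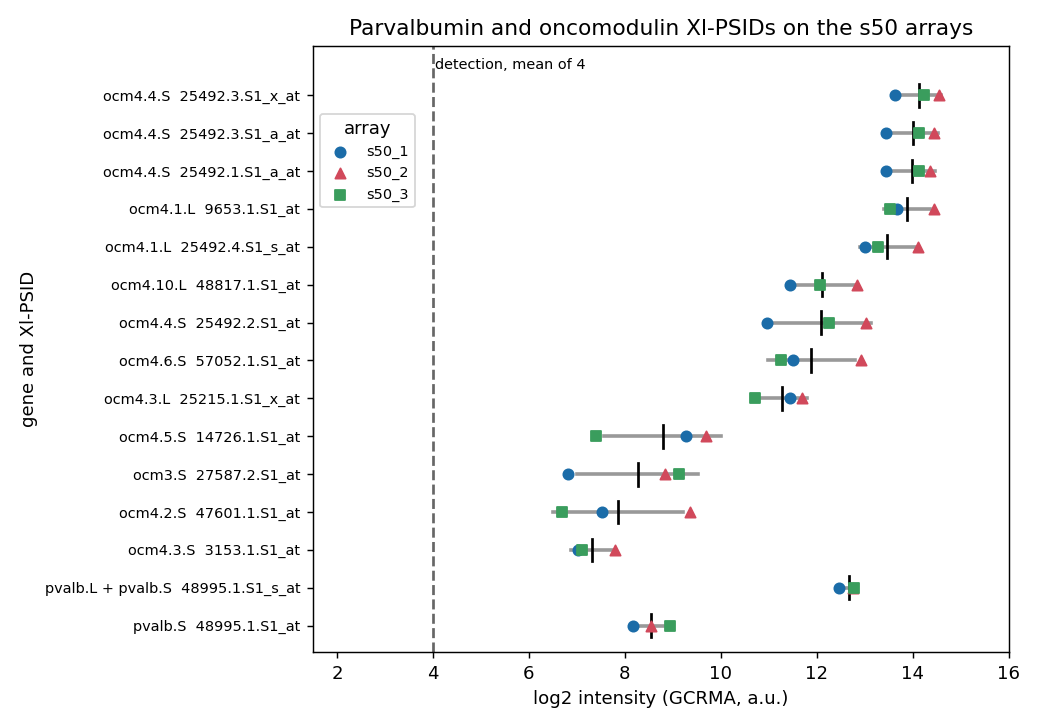
Log2 intensity (a.u., horizontal axis) of the 15 member Xl-PSIDs (rows, with the annotated gene and the ID without its prefix) on arrays s50_1, s50_2 and s50_3; the black tick is the mean, the grey bar the SD, and the dashed line the detection level of 4. For 12 of the 13 oncomodulin rows the triangle of s50_2 lies farthest to the right, and no value is below 6.69.

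*ocm4.4.S* had 4 Xl-PSIDs, 3 of them among the brightest of the family. The intensity of Xl2.25492.3.S1_x_at was 13.63 (s50_1), 14.54 (s50_2) and 14.22 (s50_3), with a mean of 14.13 ± 0.46. That of Xl2.25492.3.S1_a_at was 13.43, 14.44 and 14.13 in the same order (14.00 ± 0.52). The third, Xl2.25492.1.S1_a_at, had 13.43, 14.36 and 14.13 (13.97 ± 0.48). These 3 differed from each other by at most 0.21 on any array, and the suffixes _a_at, _s_at and _x_at mark probe sets that can match several transcripts. The Xl-PSID of *ocm4.4.S* without such a suffix, Xl2.25492.2.S1_at, had 10.95 (s50_1), 13.02 (s50_2) and 12.25 (s50_3), with a mean of 12.07 ± 1.05. All 4 were lowest on s50_1 and highest on s50_2, with a range of 2.07 for the probe set without a suffix and of 0.90 to 1.01 for the others.

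*ocm4.1.L*, which stands second in the L run, had 2 Xl-PSIDs, both in the study's lists. Xl2.9653.1.S1_at, the parvalbumin beta-like gene of the study, had 13.67 (s50_1), 14.43 (s50_2) and 13.53 (s50_3), with a mean of 13.88 ± 0.49. Xl2.25492.4.S1_s_at, an *ocm.2* of the study, had 13.01, 14.11 and 13.27 in the same order (13.46 ± 0.57). Both were highest on s50_2, by 0.76 and 1.10 over s50_1 and by 0.90 and 0.83 over s50_3. The order of the remaining arrays differed between the 2 Xl-PSIDs, by 0.15 and 0.26.

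*ocm4.10.L*, the *pvalb.2* of the study, had 11.43 (s50_1), 12.83 (s50_2) and 12.06 (s50_3), with a mean of 12.11 ± 0.70. Its lowest and highest arrays differed by 1.39. *ocm4.3.L*, the other *ocm.2* of the study, had 11.44 (s50_1), 11.70 (s50_2) and 10.70 (s50_3), with a mean of 11.28 ± 0.52. Here s50_1 and s50_2 were closer, 0.25 apart, and s50_3 was lowest. The S homeolog *ocm4.3.S* had 7.02, 7.80 and 7.10 in the same order (7.31 ± 0.43), and was again highest on s50_2. The Xl-PSIDs of the 2 homeologs of *ocm4.3* have different probes and that of *ocm4.3.L*, with the suffix _x_at, can match several transcripts, so their levels are not set against each other.

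Of the other genes of the S run, *ocm4.6.S* had 11.49 (s50_1), 12.91 (s50_2) and 11.24 (s50_3), with a mean of 11.88 ± 0.90. *ocm4.5.S* had 9.27, 9.70 and 7.40 (8.79 ± 1.22), with s50_3 2.29 below s50_2. *ocm4.2.S* had 7.52 (s50_1), 9.35 (s50_2) and 6.69 (s50_3), with a mean of 7.85 ± 1.36 and the widest range of the members, 2.66. All of these were highest on s50_2 and lowest on s50_3. *ocm3.S*, the first gene of the S run and formerly named *pvalb.1*, was the only oncomodulin member that was not highest on s50_2. It had 6.82 (s50_1), 8.84 (s50_2) and 9.13 (s50_3), with a mean of 8.26 ± 1.26, so that s50_2 and s50_3 were 0.29 apart and both at least 2.02 above s50_1.

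The parvalbumin Xl-PSIDs had ranges of 0.30 and 0.78 between arrays, against 0.78 to 2.66 for the oncomodulins. Xl2.48995.1.S1_s_at, which is annotated to both *pvalb.L* and *pvalb.S*, had 12.46 (s50_1), 12.76 (s50_2) and 12.76 (s50_3), with a mean of 12.66 ± 0.17. Its range was the smallest of all members. Xl2.48995.1.S1_at, annotated to *pvalb.S* alone, had 8.16, 8.53 and 8.94 (8.55 ± 0.39). Both were lowest on s50_1 and both were highest on s50_3, although for the shared Xl-PSID s50_3 was only 0.0039 above s50_2. With 2 Xl-PSIDs from the same sequence cluster, the difference in spread from the oncomodulins is a description, and the ranges of *ocm4.3.S* (0.78) and *pvalb.S* (0.78) were alike.

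Among all members, 12 of 15 were highest on s50_2, against 23.4% of all detected Xl-PSIDs. The 3 others were highest on s50_3, against 9045 of the 21156 detected Xl-PSIDs. On s50_1 0 members were highest, against 7154 of the 21156. At means of at least 11, 9 of 10 members were highest on s50_2, against 22.8% of Xl-PSIDs at that level. On s50_1 the level was lowest for 10 of 15 members, against 42.3% of detected Xl-PSIDs, and on s50_3 it was lowest for 5 of 15, against 36.2%. Both together, lowest on s50_1 and highest on s50_2, held for 7 of 15, against 10.9%. The level on s50_2 was at least 1 above that on s50_1 for 7 of 15 members, all oncomodulins, against 8.35%. The level on s50_3 was at least 1 below that on s50_2 for 3 of 15, against 13.4%. The members are not independent of each other, since 4 Xl-PSIDs belong to *ocm4.4.S* and 2 to *ocm4.1.L*. By its ID, Xl2.25492.4.S1_s_at of *ocm4.1.L* is also from the same sequence cluster as the 4 of *ocm4.4.S*. All Xl-PSIDs of that cluster are among the 7 that were lowest on s50_1 and highest on s50_2. With the brightest Xl-PSID for each annotated gene or pair of genes 8 of 11 were highest on s50_2 and 6 of 11 lowest on s50_1. Both parvalbumin Xl-PSIDs are among the 11, so *pvalb.S* enters through each of them. Of the 9 oncomodulin genes alone, 8 were highest on s50_2. Only 4 of the 9 were lowest on s50_1, close to the 42.3% of detected Xl-PSIDs, and 5 were lowest on s50_3, against 36.2%.

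The spread between arrays was read against that of other Xl-PSIDs. A range of at least 1.5 between the highest and the lowest array was seen for 5 of 15 members, against 26.5% of detected Xl-PSIDs. Since the range falls with intensity, the members were also read by level. At means of at least 11 it was 2 of 10 (*ocm4.4.S* with Xl2.25492.2.S1_at, and *ocm4.6.S*), against 7.48%, and at means of 7 to 9 it was 3 of 5 (*ocm4.2.S*, *ocm3.S* and *ocm4.5.S*), against 36.9%. The members nearest the limit were *ocm4.6.S* at 1.67 inside it and *ocm4.10.L* at 1.39 outside. The number with such a range was 3 without s50_1, 2 without s50_2 and 3 without s50_3, where a range over fewer arrays cannot be larger. The shares of all detected Xl-PSIDs over the same arrays were not counted, so the 26.5% cannot be set beside these numbers. All 5 were probe sets without a suffix, and the 6 members that can match several transcripts had ranges of 0.30 to 1.10. The median SD was 0.52 for the members and 0.48 for all detected Xl-PSIDs.

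**Figure D3:**
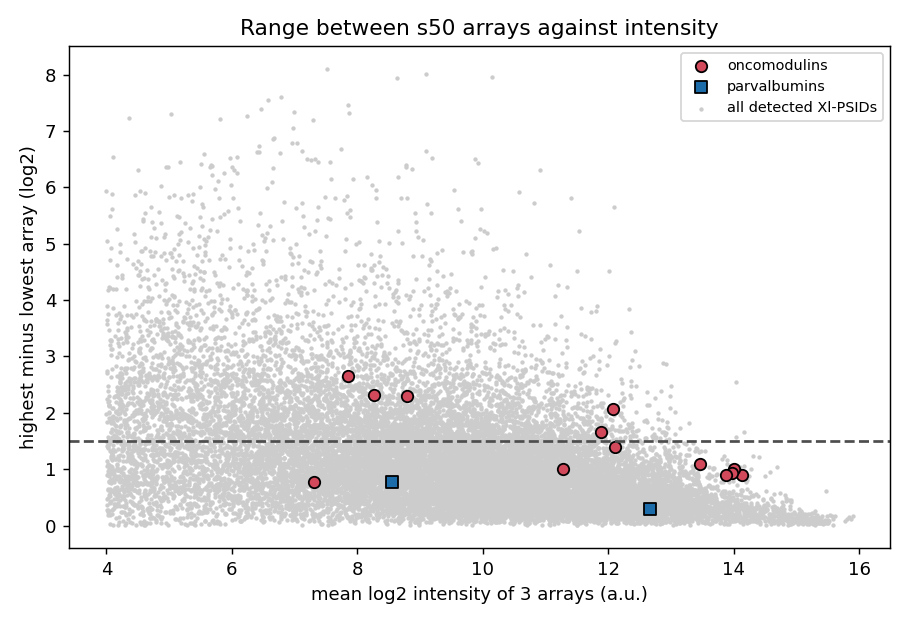
Range between the highest and lowest of the 3 arrays (log2, vertical axis) against the mean log2 intensity (a.u., horizontal axis) for the 13 oncomodulin Xl-PSIDs (circles), the 2 parvalbumin Xl-PSIDs (squares) and all 21156 detected Xl-PSIDs (grey); the dashed line marks a range of 1.5. Of the members, 5 lie above the line, 3 of them at means of 7 to 9.

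Because fast muscle, neurons and hair cells are known to use proteins of this family, their markers were followed on the same arrays. Of 44 symbols of a list for fast skeletal muscle, 34 were measured and 27 detected. The list is not limited to genes of fast fibres, and *actc1*, *myh6* and *myl3* are among the 27. Of the 27, 23 were lowest on s50_1, against 42.3% of all detected Xl-PSIDs. On s50_2 12 of 27 were highest (44.4%), against 23.4%. More of the muscle genes, 15 of 27, were highest on s50_3, as were 9045 of the 21156 detected Xl-PSIDs. Both together, lowest on s50_1 and highest on s50_2, held for 10 of 27, against 10.9%. The creatine kinase gene *ckm* had 13.17 (s50_1), 14.20 (s50_2) and 14.33 (s50_3), and *mylpf*, a fast myosin light chain, had 13.26, 13.78 and 14.07. The troponin C gene *tnnc2*, itself an EF-hand protein, had 11.85, 13.51 and 13.20. Each of these was lowest on s50_1, and *ckm* and *mylpf* were highest on s50_3 but *tnnc2* on s50_2. The other bright genes of the list were *actc1*, an actin (14.25 ± 0.47), *myh4*, a fast myosin heavy chain (14.16 ± 0.54), and *pygm*, the glycogen phosphorylase of muscle (13.79 ± 0.13). Skeletal actin *acta1* was low, with 2.95, 6.89 and 6.13. Regulators of muscle fate, *myf5*, *myod1* and *myf6*, were at the floor with means of 2.01, 2.02 and 2.03.

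The oncomodulins were set beside the muscle genes array by array. The median of s50_2 minus s50_1 was 1.01 over the 13 oncomodulin Xl-PSIDs, 1.60 over the 27 detected muscle genes and 0.062 over all detected Xl-PSIDs. The median of s50_3 minus s50_1 was 0.26 over the oncomodulins, 1.54 over the muscle genes and 0.090 over all. With the brightest Xl-PSID for each of the 9 oncomodulin genes these medians were 0.90 for s50_2 and -0.15 for s50_3, so that the direction for s50_3 turned. As differences from the own mean, the medians of the oncomodulins were -0.45, 0.58 and -0.19 on s50_1, s50_2 and s50_3, and those of the muscle genes -1.01, 0.47 and 0.48. Without s50_1 the muscle median on s50_2 was -0.067. The own mean is then over s50_2 and s50_3, so this value only sets these arrays against each other. For the 2 parvalbumin Xl-PSIDs the medians with all arrays were -0.29, 0.043 and 0.25. On s50_3, 8 of 13 oncomodulin Xl-PSIDs were above their own s50_1 value, as were 25 of 27 muscle genes and 53.6% of all detected Xl-PSIDs. Of these 8, 4 belong to *ocm4.4.S*, and by the brightest Xl-PSID for each gene it was 4 of 9 oncomodulins. The part of muscle RNA in the values of the family was not tested.

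**Figure D4:**
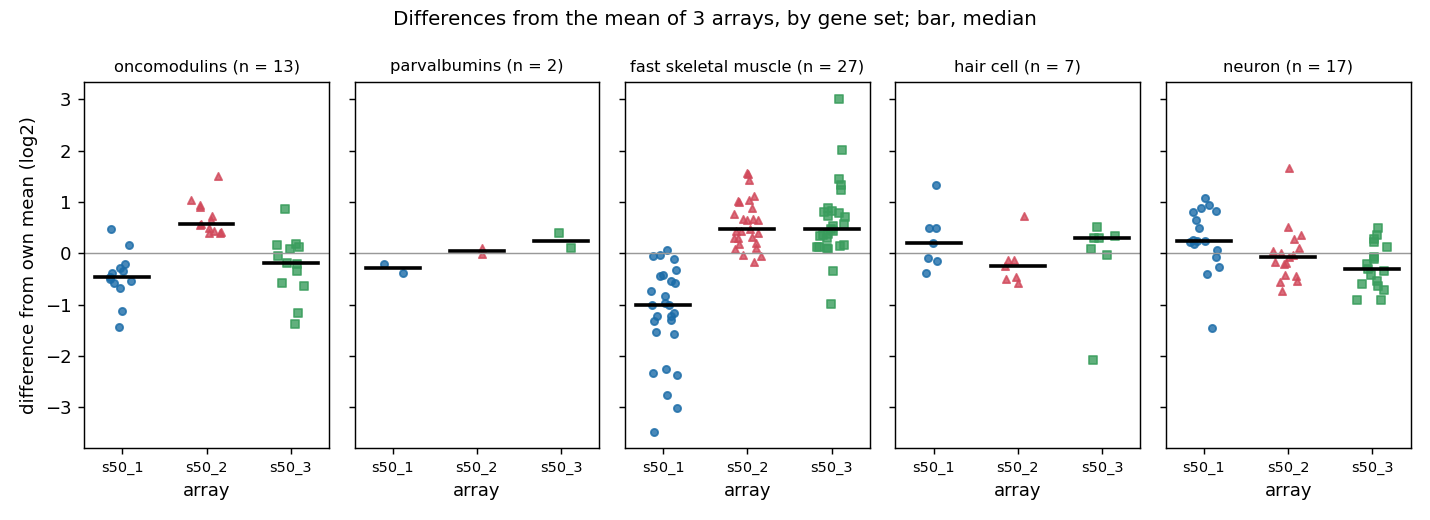
Difference of each Xl-PSID or gene from its own mean over the 3 arrays (log2, vertical axis) on s50_1, s50_2 and s50_3 (horizontal axis), for oncomodulins (13 Xl-PSIDs), parvalbumins (2), and detected genes of fast skeletal muscle (27), hair cell (7) and neuron (17) lists; black bars are medians. The oncomodulin median is highest on s50_2 at 0.58, whereas the muscle medians on s50_2 and s50_3 are 0.47 and 0.48.

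Hair cell genes could be followed in part only. Of 43 symbols, 7 had an Xl-PSID with that gene name, and the defining genes *otof*, *myo7a*, *pou4f3*, *tmc1* and *atoh1* had none, so the label of the hair cells rests on less specific genes. All 7 were detected, led by the unconventional myosin gene *myo6* (12.65 ± 0.44), *triobp*, which bundles actin in stereocilia rootlets (11.59 ± 0.47), *ush1c*, a scaffold of the hair bundle (11.56 ± 0.47), and the neurotrophin gene *bdnf* (10.04 ± 1.82). Of these 7 genes 0 were highest on s50_2, against 23.4% of all detected Xl-PSIDs. The medians of their differences were 0.20, -0.25 and 0.29 on s50_1, s50_2 and s50_3. For the oncomodulins the median on s50_2 was 0.58. Of 22 neuronal symbols, 20 were measured and 17 detected. Among them *isl1*, a transcription factor of sensory neurons, had 13.88 ± 0.52, the synuclein gene *sncg* 13.20 ± 0.46, *snap25*, which acts in vesicle release, 12.91 ± 0.68, and *stmn2*, a regulator of microtubules, 12.34 ± 0.22. Of these, *isl1* and *snap25* are defining markers here. On s50_1, s50_2 and s50_3 *isl1* had 14.13, 14.24 and 13.28, and *snap25* had 13.56, 12.96 and 12.20. Thus *isl1* was highest on s50_2 and *snap25* on s50_1. The defining marker *tubb3* had 12.87 (s50_1), 12.16 (s50_2) and 11.14 (s50_3), with a mean of 12.06 ± 0.87. The transcription factor gene *pou4f1* (1.89 ± 0.01), the microtubule gene *map2* (3.72 ± 2.47) and the RNA-binding protein gene *elavl3* (3.79 ± 1.80) were not detected by their means. The last of them, *elavl3*, is a defining marker too. On s50_1 alone *map2* had 6.57 and *elavl3* 5.86, and without s50_2 or s50_3 both would be called detected, with means of 4.44 and 4.43 for *map2* and of 4.39 and 4.22 for *elavl3*. The neuronal medians were 0.25, -0.068 and -0.31. On s50_2 4 of 17 neuronal genes were highest (23.5%), close to the 23.4% of all detected Xl-PSIDs. Without s50_1 the neuronal median on s50_2 was 0.18, and without s50_2 the hair cell median on s50_1 was -0.052. Each of these values only sets the arrays left against each other. The part of neurons and hair cells in the values of the family was not tested either.

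Other genes of calcium binding and transport were followed in the same way. Their lists are not free of muscle genes. For example, *tnnc2* stands in both the EF-hand and the muscle list, and *atp2a1* of the pumps is also a defining marker of muscle here. The gene *cib2* stands in both the EF-hand and the hair cell list. Of 66 symbols of a list of EF-hand proteins outside the family, 39 were measured and 34 detected, of which 8 were highest on s50_2 (23.5%), close to the 23.4% of all detected Xl-PSIDs. The brightest were *s100a10*, a partner of annexin A2 (14.12 ± 0.27), *efhd1* of mitochondria (13.99 ± 0.05), *rcn3* of the endoplasmic reticulum (13.29 ± 0.35) and secretagogin, *scgn*, a calcium sensor of neuroendocrine cells (13.02 ± 0.01). The photoreceptor gene *guca1a* (1.90 ± 0.02), *pef1* (2.15 ± 0.04) and *rcvrn.2* (2.17 ± 0.10) were at the floor. The median differences of the detected genes were 0.25, 0.042 and -0.088. Of 44 symbols for calcium pumps, exchangers and release channels, 19 were measured and 16 detected. Of the 16, 5 were highest on s50_2, against the same 23.4%. The plasma membrane pump *atp2b1* had 13.07 ± 0.42, and the pump of the muscle reticulum *atp2a1*, which takes up calcium beside parvalbumin in fast fibres, had 12.25, 13.24 and 13.38 on s50_1, s50_2 and s50_3. The mitochondrial uniporter gene *mcu* had 12.73 ± 0.11 and the gene of its subunit, *smdt1*, had 12.80 ± 0.38. The exchangers *slc8a1* and *slc8a3* were at the floor with means of 1.92 and 2.08, and *asph*, with a mean of 2.24, was not detected.

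Likeness in pattern was measured as the distance between the 3 differences from the own mean, among 11350 detected Xl-PSIDs with a single gene symbol outside the family. The closest to *ocm4.10.L* were *socs1*, *pomc* and *rlbp1*, at distances of 0.045, 0.055 and 0.066. To *ocm4.3.L* they were *metrnl* (0.0084), *stk17a* (0.021) and *stambpl1* (0.024), and to the *ocm.2* Xl-PSID of *ocm4.1.L* they were *spock2* (0.020), *rxrg* (0.035) and *dipk1a* (0.037). With 3 arrays many Xl-PSIDs come close, and 60, 360 and 126 lay within 0.25 of *ocm4.10.L*, *ocm4.3.L* and *ocm4.1.L*.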

How the data were processed

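RNA from 3 pools of *s50* inner ears was hybridized to Affymetrix *X. laevis* Genome 2.0 arrays. The log2 intensities deposited by the authors come from GCRMA, run in JMP Genomics 5.0, and were used without further normalization. GCRMA equalizes the distributions of arrays, so a shift common to most transcripts cannot be seen. Not given in the sources used here is whether it was run over 3 arrays or over those of all stages, which were not analysed here. Precision rests on 3 pools, and no outlying array was tested. In the study's scatter plots replicates correlated most with each other, except those of *s50*. The Pearson correlation was 0.979 for s50_1 with s50_2, 0.975 for s50_2 with s50_3 and 0.956 for s50_1 with s50_3.

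Symbols came from the platform's annotation (15505 Xl-PSIDs with 1 symbol, 279 with several, 16851 with none). Gene identifiers matched 15394 symbols to the RefSeq table of assembly v10.1 and renamed 2, none of them a member. That table was used for names and neighbours only. The study's IDs were joined without their prefix. In lists each gene was taken by its brightest Xl-PSID.

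Named genes were all members, the 4 brightest and up to 3 undetected genes of each of 5 lists, defining cell markers, and the 3 Xl-PSIDs nearest in pattern to each Xl-PSID that the study names *pvalb.2* or *ocm.2*. Members, lists and rules were chosen with earlier results of these data known. Alternatives were detection at 3, at 5 or with 4 or more on each array, the median of arrays, quantile normalization, a range of 1, members without the suffixes _a_at, _s_at and _x_at, annotated names only, and leaving out each array. The use of 1 Xl-PSID per gene, and all alternatives for the count highest on s50_2, were added after seeing the data. Python 3.11.15 with pandas 2.3.3 and numpy 2.4.6 was used, and scripts were tested on simulated data.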

Additional observations from a re-analysis of the deposited data

How the results depend on the processing

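Of 62 alternative values for counts and medians of the members, 52 stayed within 1.5 times the count or within the median SD of the members. Part of the 52 could not move and tells nothing about stability. Use of annotated names only kept the same 15 members. The lowest member value was 6.69, so all 15 had to be detected under every detection rule and on leaving out any array. The detection rules therefore could not change the count by range or the median differences either. Without the suffixed Xl-PSIDs (_a_at, _s_at and _x_at), 9 members remained. All 9 were detected, their median was 8.79, 5 of 9 were lowest on s50_1 and 7 of 9 highest on s50_2. With 1 Xl-PSID per annotated gene or pair of genes the median was 11.28, and 6 of 11 were lowest on s50_1. Over the oncomodulin genes alone 4 of 9 were lowest on s50_1. With a limit of 1 in place of 1.5, 8 of 15 members passed for range. The share of all detected Xl-PSIDs at that limit was not counted. Their median range was 0.92, and that of the members was 1.01, so a limit of 1 lies near both medians. Leaving out each array in turn gave 2 to 3 members with a range of at least 1.5 (2 without s50_2, 3 without s50_1 or s50_3). The shares of all detected Xl-PSIDs over the same arrays were not counted. All 15 members were detected in each case, with medians of 11.60 to 12.45. On leaving out an array the median difference was -0.46 to -0.15 on s50_1, 0.38 to 0.46 on s50_2 and -0.38 to 0.15 on s50_3. The own mean was then taken over the 2 arrays left, so their medians are 1 value with opposite signs. The turned direction on s50_3 without s50_2 therefore says only that s50_3 was above s50_1 by the median. The cause of the other moves was not tested beyond there being fewer Xl-PSIDs or arrays. The 185 alternative values for single members and for the lists stayed within 1.5 times the count, within the member's own SD or within the list's median SD, although 6 of 75 member levels moved by more than the median SD of the members. Leaving out an array or taking the median cannot move the mean of 3 arrays by as much as the member's own SD. For single members those settings therefore had to stay within it, and they tell nothing about stability. The sign of 9 of 75 list medians turned, 7 of them on leaving out an array. These were EF-hand proteins on s50_1 (-0.011 without s50_3), muscle on s50_2 (-0.067 without s50_1), hair cell on s50_1 (-0.052 without s50_2), neuron on s50_2 (0.18 without s50_1), and pumps and exchangers on s50_1 (0.035 without s50_2), s50_2 (-0.036 without s50_1) and s50_3 (0.036 without s50_1). The other 2 were pumps and exchangers on s50_1 at a detection level of 5 (0.052) and on s50_3 after quantile normalization (0.0060). Values near the floor have no order, and the number of arrays limits the precision. No paired analysis was possible because the arrays form 1 group.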
